A study of Mus musculus with 4 samples.

Results

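Hedgehog signalling was followed through 9 genes chosen by name for their part in reception, transduction and feedback (Gli1, Gli2, Gli3, Ptch1, Smo, Hhip, Sufu, Boc and Gas1), out of 47069 Ensembl genes listed with expression values. The cells were primary mouse bone marrow stromal cells (mBMSCs) at passage P1, grown out of the marrow of wild type C57BL/6J mice aged 8 weeks. Both groups received the synthetic glucocorticoid dexamethasone (DEX, 1 μM) for 3 d, either with ginkgolic acid (GA, 50 μM), an inhibitor of sumoylation, or with the solvent DMSO in equal volume. RNA-seq gave 2 libraries for GA plus DEX and 2 for DMSO plus DEX. Whether the 2 RNA-seq libraries of a group stand for different mice or cultures is not given in the sources used here (the methods count each mouse as a biological sample for the differentiation and qRT-PCR work), and p-values therefore cover only the spread between these libraries, which may be technical.

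Hedgehog proteins are secreted signals that act during skeletal growth, and in mesenchymal progenitors the pathway is known to favour bone formation and to restrain fat formation. The ligand binds the receptor PTCH1 together with the coreceptors BOC, CDON and GAS1, and PTCH1 then no longer holds back the membrane protein SMO. Active SMO in the primary cilium releases the GLI transcription factors from their cytoplasmic inhibitor SUFU. Gli1, Ptch1 and Hhip are themselves transcribed in response to the signal, so that their mRNAs serve as a readout.

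The values are FPKM, which are fragments scaled to gene length and library size and therefore allow levels of different genes to be set side by side. The reads behind them numbered 21559951 to 31069538 per library, and a gene of 1 kb at 1 FPKM rests on 21.6 to 31.1 of them. Of the 12174 genes averaging 1 FPKM or more, which were tested with limma on log2(FPKM + 1), 46.3% were called higher and 11.9% lower in GA plus DEX at an adjusted p under 0.05. The median gene was 0.19 higher on the log2 scale, and after the log values of every library were brought to the same median, a shift of all log2 fold changes by 0.23 downwards, 19.5% were called higher and 27.9% lower. Changes are therefore given both ways. The 10 most abundant genes took an estimated 29.3% and 27.4% of reads in DMSO plus DEX and 14.4% and 16.1% in GA plus DEX. Rescaling without these genes is among the alternative settings below. Because of the added 1, log2 fold changes of weakly expressed genes come out too small, and folds are ratios of mean FPKM.

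Marker genes showed that the cultures were mixed and that their makeup or state differed between the groups. The stromal genes Pdgfra, Pdgfrb, Cxcl12, Lepr and Eng were expressed in every library, whereas Thy1 was below 1 FPKM in all 4. These stromal genes moved in opposite directions: Cxcl12 was 4.12-fold and Lepr 2.59-fold higher in GA plus DEX, and Pdgfrb 1.42-fold and Eng 1.36-fold lower, all called on both scales, while Pdgfra was called higher (log2 fold change 0.26) only as deposited. Of 5 chondrocyte markers, 3 were tested. Among these Col2a1, a cartilage collagen, was 1.93-fold lower and was called on both scales. Sox9 went the other way (log2 fold change 0.25) and was called on neither scale. Col10a1 (-0.28) was called lower only after the shift. Acan and Matn1 were too low to be tested and overlapped between the groups. The summed FPKM of 6 adipocyte markers was 15.4 and 15.5 in DMSO plus DEX and 4665 and 4006 in GA plus DEX, with Cfd listed at 0 in both DMSO libraries. The sum of 6 osteoblast markers was 68953 and 65664 in DMSO plus DEX against 30408 and 34815 in GA plus DEX. All 6 macrophage markers were called higher (5 after the shift; summed FPKM 2142 to 2402 in DMSO plus DEX and 2695 to 3191 in GA plus DEX), as were all 5 osteoclast markers tested of 6 (summed FPKM 285 to 299.8 against 857 to 917). Endothelial markers were low, with a summed FPKM of 1.67 to 1.70 and 3.85 to 5.93. In bulk RNA, fewer cells of a type and less mRNA per cell cannot be told apart, and the part of cell makeup in the results that follow was not tested.

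The reception and transduction genes among the members were expressed, among them Ptch1, which the signal also induces. Gli1 and Hhip, the other members named above as induced, were scarce. Gas1, Smo and Sufu stood at the 91.0th, 86.6th and 67.6th percentile of the mean levels of the genes tested. Ptch1, Boc and Gli3 followed at the 51.7th, 47.2nd and 36.0th percentile and Gli2 at the 22.0th. Gli1 averaged 0.414 FPKM and Hhip 0.0244 FPKM over the 4 libraries, and these 2 members fell short of the minimum for the test. By mean FPKM the order was Gas1, Smo, Sufu, Ptch1, Boc, Gli3, Gli2, Gli1 and Hhip. In the DMSO libraries Ptch1 (15.3 and 16.3 FPKM) and Boc (15.3 and 15.2 FPKM) were neighbours whose values did not separate beyond their spread.

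**Figure D1:**
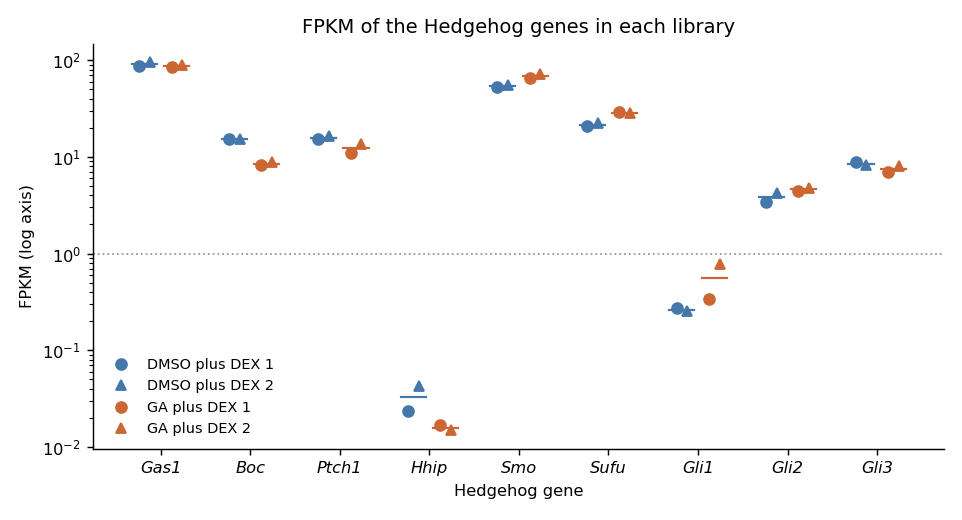
FPKM (vertical log axis) of the 9 Hedgehog genes (horizontal axis) in each DMSO plus DEX library (blue) and GA plus DEX library (orange); circles are replicate 1, triangles replicate 2, short lines group means, and the dotted line marks the minimum of 1 FPKM for the test. Gli1 and Hhip lay below that line in all 4 libraries, and Boc fell from 15.3 and 15.2 to 8.22 and 8.80 FPKM.

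Of the 7 members tested, 2 rose (Smo and Sufu) and 2 fell (Ptch1 and Boc) in GA plus DEX, beside 46.3% and 11.9% of all genes tested, and 3 (Gas1, Gli2 and Gli3) did not pass. Once library medians were made equal, none was called higher and 4 were called lower (Ptch1, Boc, Gli3 and Gas1), beside 19.5% and 27.9% of all genes. The median log2 fold change of the 7 was -0.053 against 0.19 for all genes tested, and -0.28 against -0.044 on the shifted scale. The fall of Boc was thus called on both scales, as was that of Ptch1, and the rises of Smo and Sufu were called only on the scale as deposited.

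**Figure D2:**
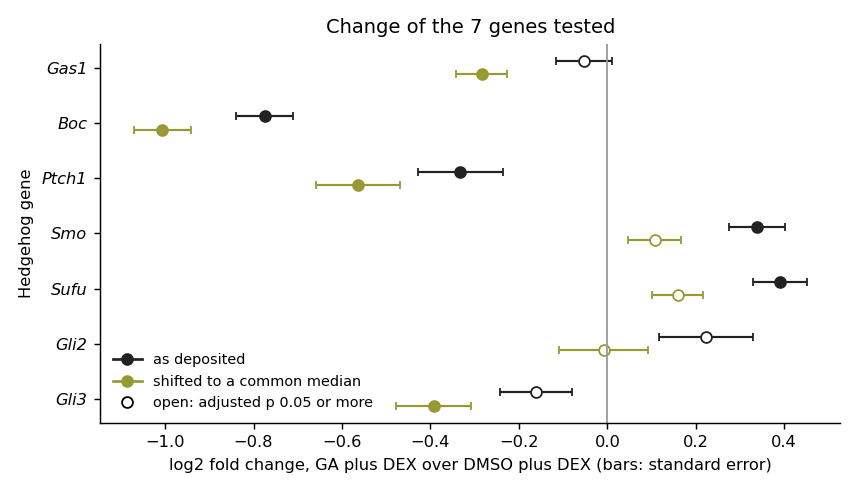
Log2 fold change (horizontal axis) of the 7 Hedgehog genes tested, GA plus DEX over DMSO plus DEX, as deposited (black) and with library medians made equal (olive); bars are standard errors from limma, and open symbols mark an adjusted p of 0.05 or more. Boc was lowest on both scales (-0.77 and -1.01), and Smo and Sufu are filled only on the deposited scale.

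Among the receptors, Boc (ENSMUSG00000022687), the membrane coreceptor of the immunoglobulin family, showed the largest change of the 7 members tested. Its FPKM was 15.3 and 15.2 in DMSO plus DEX and 8.22 and 8.80 in GA plus DEX. Both GA libraries lay well below both DMSO libraries, and the replicates of each group were close to each other. The mean fell from 15.3 ± 0.0355 to 8.51 ± 0.412 FPKM (SD, n = 2), which is 1.79-fold lower (log2 fold change -0.77 with a standard error of 0.06, limma adjusted p = 5.47e-05). After the shift the log2 fold change was -1.01 (adjusted p = 1.58e-05), and over all 13 alternatives tried it ran from -0.58 to -1.02 with Boc called lower each time. The other coreceptors, Gas1 and Cdon, did not pass as deposited. Gas1 (ENSMUSG00000052957), a membrane-anchored coreceptor and the most abundant member, had FPKM values of 86.7 and 95.2 in DMSO plus DEX and 85.7 and 89.5 in GA plus DEX. These ranges overlapped (log2 fold change -0.053, adjusted p = 0.495), but the shift placed Gas1 among the lower genes (-0.28, adjusted p = 0.00546). In the annotation at hand 19.9% of the exon bases of Gas1 are also covered by a noncoding gene on the opposite strand, and the strand setting of the counting is not given in the sources used here. Cdon, the close relative of Boc, was at 6.85 and 6.78 FPKM in DMSO plus DEX and 6.77 and 7.36 FPKM in GA plus DEX (log2 fold change 0.045, adjusted p = 0.615, and -0.19 with adjusted p = 0.0714 after the shift).

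Ptch1 (ENSMUSG00000021466), at once the ligand receptor and a target gene of the pathway, had FPKM values of 15.3 and 16.3 in DMSO plus DEX and 11.1 and 13.7 in GA plus DEX. Both GA libraries were lower than both DMSO libraries, but the GA libraries differed from each other by more than the DMSO libraries did. The mean was 1.27-fold lower (15.8 ± 0.673 against 12.4 ± 1.86 FPKM, SD, n = 2; log2 fold change -0.33 with a standard error of 0.10, limma adjusted p = 0.0203). After the shift it was -0.56 (adjusted p = 0.00201). On the deposited scale this call did not hold without GA replicate 1 (-0.19, adjusted p = 0.0749), without DMSO replicate 2 (-0.29, adjusted p = 0.0623) or with no minimum FPKM (adjusted p = 0.0997). With no minimum, the osteoblast genes Col1a1 (2.28-fold lower, limma adjusted p = 0.442), Ibsp (1.69-fold lower, 0.292) and Alpl (0.0642) lost their calls too. Runx2, Sp7 and Bglap kept theirs. A call lost under this setting is therefore not particular to the gene.

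Hhip (ENSMUSG00000064325), a membrane protein that binds and sequesters the ligand and whose transcription the pathway induces, was hardly detected. Its FPKM was 0.0234 and 0.0425 in DMSO plus DEX and 0.0169 and 0.0148 in GA plus DEX. The reads behind these values can be recovered only up to a common factor, with smallest solutions of 2 and 3 in DMSO plus DEX and 1 and 1 in GA plus DEX, so that no fold is given and a difference was not detectable at this depth.

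Smo and Sufu, whose products act against each other downstream of the receptor, were both called higher in GA plus DEX, but only as deposited. Smo (ENSMUSG00000001761), which encodes the membrane protein that passes the signal on, had FPKM values of 52.8 and 55.1 in DMSO plus DEX and 65.5 and 71.6 in GA plus DEX. The groups did not overlap, and the rise was 1.27-fold (54.0 ± 1.67 to 68.5 ± 4.34 FPKM, SD, n = 2; log2 fold change 0.34 with a standard error of 0.06, limma adjusted p = 0.00293). Sufu (ENSMUSG00000025231), which encodes the inhibitor that keeps GLI proteins in the cytoplasm, had FPKM values of 20.8 and 22.4 in DMSO plus DEX and 29.0 and 28.3 in GA plus DEX. Here too both GA libraries were above both DMSO libraries, and the rise was 1.32-fold (21.6 ± 1.13 to 28.7 ± 0.539 FPKM, SD, n = 2; log2 fold change 0.39 with a standard error of 0.06, adjusted p = 0.00127). After the shift the log2 fold change was 0.11 for Smo (adjusted p = 0.188) and 0.16 for Sufu (adjusted p = 0.0527), so that neither passed, although both stayed above 0. Rescaling without the 10 most abundant genes gave 0.10 for Smo (limma adjusted p = 0.239) and 0.16 for Sufu (0.0547).

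The promoters of the 3 called members found in the RefSeq promoter table (build GRCm38.p6) are shown. As deposited, Smo and Sufu were called higher and Ptch1, a GLI target, was called lower. Whether these stretches bear on the changes was not tested. Each run holds the 250 bases before the annotated start site, 5′ to 3′ on the strand of the gene, at chr13:63565736-63565985 (minus strand) for Ptch1, chr6:29735247-29735496 (plus strand) for Smo and chr19:46396646-46396895 (plus strand) for Sufu. Capitals mark the GC box GGGCGG, the core bound by SP1, on either strand.
Ptch1: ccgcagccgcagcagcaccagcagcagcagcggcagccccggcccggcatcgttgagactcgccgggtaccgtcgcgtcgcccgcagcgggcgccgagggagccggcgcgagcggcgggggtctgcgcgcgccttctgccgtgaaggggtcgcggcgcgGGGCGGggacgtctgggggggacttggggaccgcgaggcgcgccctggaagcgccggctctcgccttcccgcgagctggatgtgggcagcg
Smo: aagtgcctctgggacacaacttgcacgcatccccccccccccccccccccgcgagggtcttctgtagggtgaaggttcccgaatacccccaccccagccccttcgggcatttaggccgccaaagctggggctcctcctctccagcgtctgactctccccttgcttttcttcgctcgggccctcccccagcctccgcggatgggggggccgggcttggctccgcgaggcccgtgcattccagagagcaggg
Sufu: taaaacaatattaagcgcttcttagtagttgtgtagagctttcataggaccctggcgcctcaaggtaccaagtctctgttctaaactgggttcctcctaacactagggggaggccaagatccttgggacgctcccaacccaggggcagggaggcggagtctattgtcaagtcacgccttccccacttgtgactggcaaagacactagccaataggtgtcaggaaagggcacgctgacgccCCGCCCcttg

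A GC box lies at position -91 from the start site in Ptch1 and at -10 in Sufu, and Smo has none in this window. Of the 7 members matched in the table, 6 held a GC box in the full window of 300 bases (250 before and 50 after the start), against 35.7% of 32851 windows of all genes. The GLI consensus GACCACCCA, searched on both strands, was in none of the 7 windows and in 0.253% of all windows, which says only that these letters are not in this stretch. The G and C content of the 250 bases was 78.4% for Ptch1, 68.4% for Smo and 54.0% for Sufu. Promoters of Gli1 and Boc were not analysed here.

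Of the GLI factors, Gli2 and Gli3 were expressed at modest levels and Gli1 at a low level. Gli3 (ENSMUSG00000021318), the main GLI repressor, had FPKM values of 8.82 and 8.16 in DMSO plus DEX and 7.02 and 7.97 in GA plus DEX. The GA values were the lower ones but close to the DMSO values, and the difference did not pass (log2 fold change -0.16 with a standard error of 0.08, limma adjusted p = 0.126), while the shift brought it to -0.39 (adjusted p = 0.00686). Gli2 (ENSMUSG00000048402), the main GLI activator in response to the signal, had FPKM values of 3.39 and 4.24 in DMSO plus DEX and 4.41 and 4.80 in GA plus DEX. The GA values were the higher ones, with a gap to DMSO replicate 2 smaller than the spread within DMSO plus DEX, and no difference was called (0.22, adjusted p = 0.105; on the shifted scale -0.0084, adjusted p = 0.956). Without DMSO replicate 2, Gli2 was called higher (0.35, adjusted p = 0.0297).

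Gli1 (ENSMUSG00000025407), the activator whose own transcription depends on the signal, had FPKM values of 0.272 and 0.255 in DMSO plus DEX and 0.342 and 0.787 in GA plus DEX. GA replicate 2 stood apart, with the highest value of the 4 libraries, and GA replicate 1 was near the DMSO libraries. The smallest whole numbers of reads that give these values were 31 and 24 in DMSO plus DEX and 27 and 71 in GA plus DEX. With no minimum FPKM, Gli1 had a log2 fold change of 0.29 (adjusted p = 0.249), so that a difference between the groups was not shown. On the opposite strand, exons of Gli1 share 62 bases with Arhgap9, which averaged 5.46 FPKM, and 265 bases with a noncoding gene, and the part of such reads was not tested.

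Ratios between 2 genes of the same library do not depend on how libraries are scaled, and they are given for pairs chosen after the values were seen, with no test. Smo over Ptch1 was 3.44 and 3.38 in DMSO plus DEX and 5.90 and 5.22 in GA plus DEX. Sufu over Ptch1 was 1.36 and 1.38 against 2.62 and 2.06. Gas1 over Boc was 5.67 and 6.24 against 10.4 and 10.2, and Cdon over Boc was 0.448 and 0.445 against 0.824 and 0.836. All 4 ratios were higher in both GA libraries than in either DMSO library. Each sets Ptch1 or Boc, called lower, under a gene not called lower as deposited. Their direction therefore follows from the choice of pairs and adds no support to those calls. How many other pairs of genes separate in this way was not tested. In contrast, Sufu over Smo was 0.395 and 0.407 against 0.444 and 0.395, with overlapping values. Gli3 over Gli2 was 2.60 and 1.92 against 1.59 and 1.66, with both GA values below both DMSO values. Here the DMSO libraries differed most from each other. Sufu over Gli3, not drawn in the figure, was 2.36 and 2.75 against 4.14 and 3.55. Both GA values of that ratio were above both DMSO values.

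**Figure D3:**
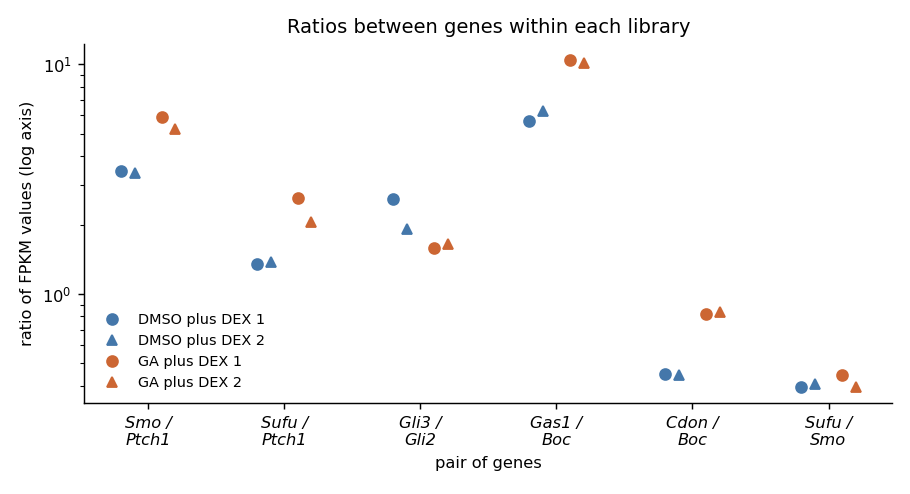
Ratio of FPKM values (vertical log axis) for 6 pairs of Hedgehog genes (horizontal axis) in each DMSO plus DEX library (blue) and GA plus DEX library (orange); circles are replicate 1 and triangles replicate 2. Smo over Ptch1 was 3.38 to 3.44 with DMSO and 5.22 to 5.90 with GA, and Sufu over Smo overlapped between the groups.

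The rest of the pathway was covered by 71 genes in 5 lists. Of the 56 tested, 27 were called higher and 10 lower (median log2 fold change 0.21), and 10 higher and 15 lower after the shift (median -0.024). All genes tested had 46.3% higher and 11.9% lower with a median of 0.19, and 19.5% and 27.9% with -0.044 after the shift, so that the lists together lay near the background on both scales.

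Ligand genes were at or near 0, and the clearest change among the genes for ligand processing and release was the fall of Scube1. Shh was listed at 0 in all 4 libraries, where 3 reads would have given 0.0339 to 0.0489 FPKM. Ihh, the ligand of growing cartilage and bone, was at 0.418 and 0.626 FPKM in DMSO plus DEX and 0.385 and 0.274 FPKM in GA plus DEX. Dhh was at 0.191 and 0.115 FPKM against 0.0393 and 0.0860 FPKM. These ligand genes were not tested, nor was Scube2 (0.432 to 0.757 FPKM). Of the 4 tested in this list, 3 fell and none rose (75% and 0%, beside 11.9% and 46.3% of all genes). All 4 were lower after the shift (100%, beside 27.9%). Scube1, a secreted protein of the family that helps release the lipid-modified ligand, fell from 3.26 and 3.35 to 1.08 and 1.43 FPKM, 2.64-fold (log2 fold change -0.94, adjusted p = 3.62e-04 from limma). Its relative Scube3 fell from 3.48 and 3.18 to 1.69 and 2.54 FPKM (-0.49, adjusted p = 0.0192). Disp1, which exports the ligand, fell from 11.4 in both libraries to 9.54 and 9.97 FPKM (-0.21, adjusted p = 0.0237). The calls of Scube3 (adjusted p = 0.0617) and Disp1 (adjusted p = 0.0861) were lost without DMSO replicate 1 and also without GA replicate 1 (0.0733 and 0.0958), and that of Disp1 also without DMSO replicate 2 (0.0843). With no minimum FPKM they were at 0.107 and 0.0534. Hhat, the acyltransferase of the ligand, was at 16.4 and 15.6 FPKM against 13.2 and 15.7 FPKM and did not pass (-0.15, adjusted p = 0.170; called lower after the shift and without GA replicate 2, adjusted p = 0.00927 and 0.0207).

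Of the 6 other reception genes, 3 were tested. As deposited 1 of them fell and none rose (33.3% and 0%, beside 11.9% and 46.3% of all genes). After the shift 2 were called lower (66.7%, beside 27.9%). Gpr161, a ciliary receptor that restrains the pathway through cyclic AMP, went from 3.53 and 3.25 to 2.40 and 2.48 FPKM. Its log2 fold change was -0.58 after the shift (limma adjusted p = 0.00162). As deposited it was -0.35 and Gpr161 was called lower (limma adjusted p = 0.0128). This call was lost without DMSO replicate 1 (adjusted p = 0.0764) and with no minimum FPKM (0.0611). The glypican gene Gpc6 averaged 15.9 FPKM with DMSO and 15.8 FPKM with GA, with overlapping libraries (-0.015, adjusted p = 0.857; lower after the shift, adjusted p = 0.0191). Gpc3, another glypican, was not tested and had FPKM values of 0.0629 and 0.0570 in DMSO plus DEX and 0.498 and 0.238 in GA plus DEX, and Lrp2 was at 0.0331 to 0.0459 FPKM.

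Of 20 regulators that act between SMO and the GLI proteins, all tested, 12 rose (60.0%, beside 46.3% of all genes) and 2 fell (10.0%, beside 11.9%). After the shift 4 rose and 4 fell (20.0% each, beside 19.5% and 27.9%), and the median log2 fold change was 0.26, and 0.025 after the shift. Prkaca, the catalytic subunit of protein kinase A that marks GLI proteins for processing, went from 32.8 and 31.6 to 56.9 and 58.0 FPKM, 1.79-fold (0.82, adjusted p = 1.59e-05 from limma, and 0.59 after the shift with adjusted p = 1.10e-04). Gsk3b, a kinase of the same processing step, went from 26.7 and 27.9 to 42.1 and 43.4 FPKM, 1.57-fold (0.63, adjusted p = 7.57e-05, and 0.40 after the shift with adjusted p = 6.61e-04). For both kinases the GA libraries were close to each other and far above the DMSO libraries. Arrb2, a beta-arrestin that binds active SMO, rose 1.37-fold (0.44, adjusted p = 0.00218). Spop, the adaptor that directs GLI proteins to degradation, fell from 112 and 113 to 94.9 and 90.6 FPKM (-0.28, adjusted p = 0.00374). Tulp3, which carries receptors such as GPR161 into the cilium, fell from 32.3 and 32.7 to 28.1 and 28.9 FPKM (-0.18, adjusted p = 0.0219), a call that was lost without DMSO replicate 1 (adjusted p = 0.0771), DMSO replicate 2 (0.104) or GA replicate 1 (0.0723). Evc (-0.11, adjusted p = 0.163) and Iqce (0.11, adjusted p = 0.234), which belong to one ciliary complex, did not pass, though Evc was called lower after the shift (-0.34, adjusted p = 0.00403). Evc2, the partner of Evc, named here after its values were seen, was called higher as deposited (24.2 and 25.2 to 28.6 and 29.1 FPKM; log2 fold change 0.21, adjusted p = 0.0128) but not after the shift (-0.017, adjusted p = 0.816) or without DMSO replicate 1 (adjusted p = 0.0842).

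**Figure D4:**
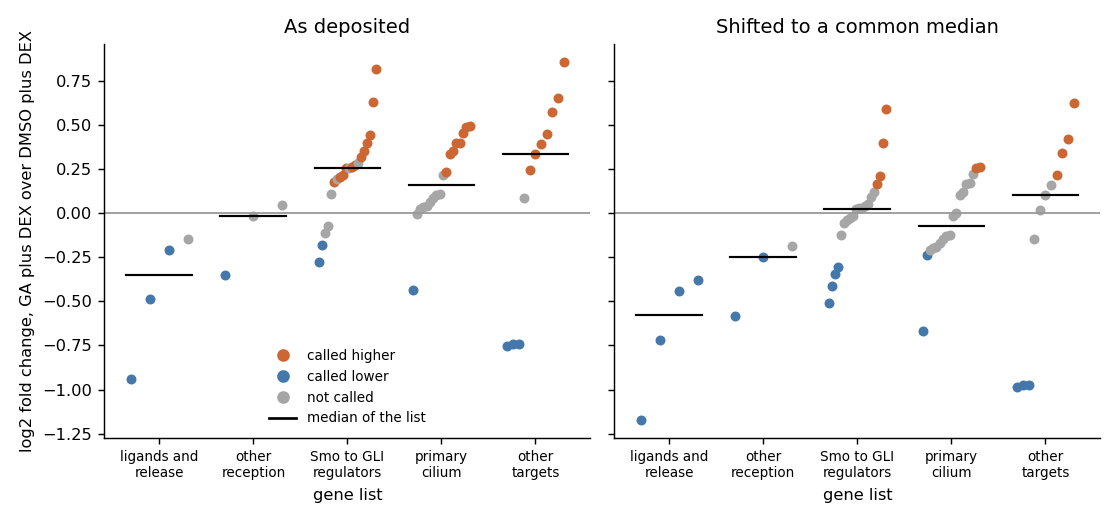
Log2 fold change (vertical axis), GA plus DEX over DMSO plus DEX, of the 56 other pathway genes tested, by list, as deposited (left) and with library medians made equal (right); each point is a gene, orange called higher, blue called lower and grey not called, and black lines are list medians. As deposited 27 were called higher and 10 lower, and after the shift 10 and 15.

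Of 18 genes of the primary cilium, the antenna in which Hedgehog signals are sorted, all tested, 8 rose and 1 fell (44.4% and 5.56%, beside 46.3% and 11.9% of all genes). After the shift 2 rose and 2 fell (11.1% each, beside 19.5% and 27.9%), and the median log2 fold change was 0.16, and -0.071 after the shift. The intraflagellar transport genes Ift122 and Ift52 rose 1.45-fold (10.5 in both DMSO libraries to 15.2 in both GA libraries; adjusted p = 3.42e-04 from limma) and 1.42-fold (19.9 and 19.0 to 27.4 and 28.0 FPKM; adjusted p = 3.11e-04), and both were also called after the shift. Bbs4, a subunit of the complex that moves receptors out of the cilium, rose 1.54-fold (adjusted p = 0.00565, and 0.0933 after the shift). Rpgrip1l, a gene of the transition zone at the base of the cilium, fell from 9.16 and 9.44 to 6.52 and 6.69 FPKM (log2 fold change -0.44, adjusted p = 0.00113). Kif3a, a motor subunit (0.10, adjusted p = 0.164), and Inpp5e, a ciliary phosphatase (0.11, adjusted p = 0.283), did not pass.

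Other target genes went in both directions. Of 19 genes, 11 were tested, of which 7 rose (63.6%, beside 46.3% of all genes), 3 fell (27.3%, beside 11.9%) and 1 was not called. On the shifted scale 4 rose and 3 fell (36.4% and 27.3%, beside 19.5% and 27.9%). The median log2 fold change was 0.33, and 0.10 after the shift. The 8 not tested were at 0 to 0.662 FPKM. Ccnd1, cyclin D1, fell from 207 and 202 to 119 and 125 FPKM, 1.68-fold (-0.74, adjusted p = 3.46e-05 from limma). Snai1, a transcription factor of mesenchymal cells, fell from 25.2 and 30.4 to 15.1 and 17.0 FPKM (-0.75, adjusted p = 4.85e-04), and Bmp2, a bone-inducing ligand, from a mean of 4.86 ± 0.333 to 2.51 ± 0.437 FPKM (SD, n = 2; log2 fold change -0.74, limma adjusted p = 9.88e-04). Igf2, an insulin-like growth factor, rose from 54.8 and 65.7 to 107 and 112 FPKM (0.86, adjusted p = 1.40e-04), Bcl2, a survival gene, from 1.19 and 1.62 to 2.81 and 2.71 FPKM (0.65, adjusted p = 0.0028) and Nr2f2, the nuclear receptor COUP-TFII, from 2.40 and 2.72 to 4.51 and 4.06 FPKM (0.57, adjusted p = 0.00183). All 6 were called in the same direction after the shift. Foxc2, a forkhead factor, did not pass (0.083, adjusted p = 0.545). As background, many of these genes are known to answer to other signals as well.

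Boc was also compared with all other genes tested for the likeness of its values over the 4 libraries. The 3 genes with the highest Pearson's r, each 0.99999 when rounded to 5 decimals, were Cep41 (6.86 and 6.86 FPKM with DMSO, 5.27 and 5.42 with GA), Ankdd1b (3.73 and 3.70 against 1.65 and 1.83 FPKM) and Mfge8 (274 and 273 against 186 and 194 FPKM). With 4 libraries in 2 groups such values are common, since 491 of 12173 genes had an r above 0.99 with Boc.

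The 7 tested members were recomputed under 13 other settings, except Gli2 at the minimum of 5 FPKM, which its mean of 4.21 did not reach. Boc was called lower in all of them. Smo and Sufu were called higher in 10 of 13 and lost the call only under the 3 settings that rescale whole libraries, and Ptch1 was called lower in 10 of 13.

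**Figure D5:**
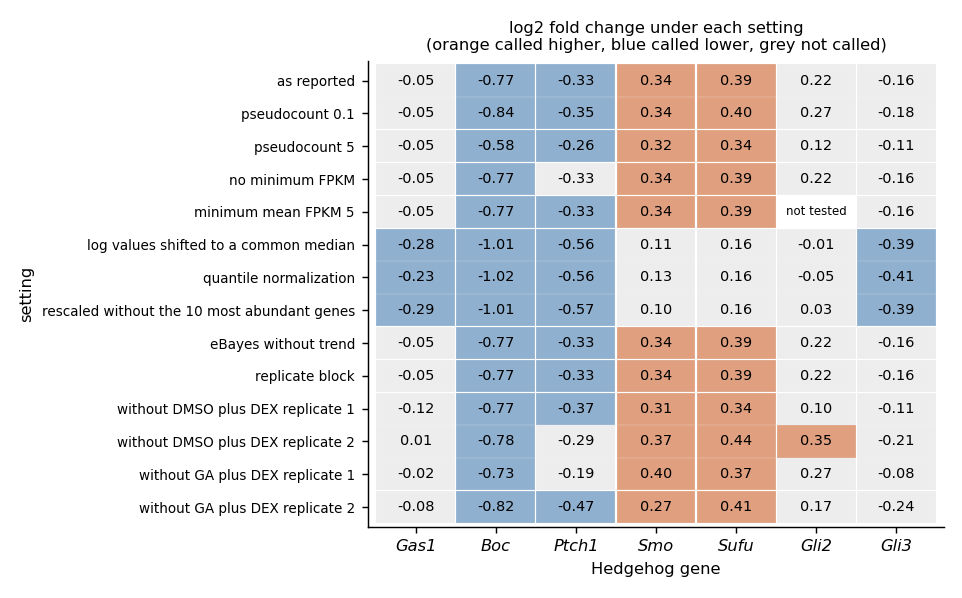
Log2 fold change of the 7 Hedgehog genes tested (horizontal axis) under the reported setting and 13 alternatives (vertical axis); orange cells were called higher, blue cells lower and grey cells not called at an adjusted p of 0.05. The Boc column is blue throughout, and the Smo and Sufu columns turn grey in the 3 rows that rescale libraries.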

How the data were processed

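mBMSCs treated with GA plus DEX or DMSO plus DEX (2 libraries each) were sequenced by a commercial service. The authors deposited FPKM values, 1 column per library, matched to samples by name. Build mm9 and the tools TopHat2 2.0.12, HTSeq 0.6.1 and Bowtie2 2.2.3 stand in the submitters' processing notes. Which annotation, gene lengths and strand setting were used is not given in the sources used here. Symbols were assigned by identifier (46488 of 47069). Depth was recovered from the value most genes share after FPKM was multiplied by GENCODE M21 exon length (1279 to 1368 genes at this value, taken as 1 read). Reads of a gene were then found with the length nearest the GENCODE one that gave whole numbers in all 4 libraries (tolerance 0.002), which could differ from it (3665 against 4995 bases for Gli1).

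All 12174 genes with mean FPKM of 1 or above entered one fit with limma 3.58.1 (R 4.3.3) to log2(FPKM + 1) (eBayes with trend, two-sided, Benjamini-Hochberg). The fit was also run on simulated data, in which few genes changed, balanced up and down, with no difference in scale between the groups. That run cannot say how the fit behaves where many genes change and library medians differ, as here. Alternatives were pseudocounts of 0.1 and 5, no minimum or a minimum of 5 FPKM, quantile normalization, a shift that made library medians equal on the log scale, rescaling without the 10 most abundant genes, no trend, the replicate number as a block, and each library left out. Members and lists were chosen with earlier results of these data known. Named were all members, ligand and reception genes, and of each other list the called genes that changed most (up to 3 in each direction) and the most abundant uncalled ones (up to 2). An item among these is not reported here. Promoters came from RefSeq (GRCm38.p6), and no coordinates were taken over to mm9. Figures were drawn with matplotlib 3.10.9.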

Additional observations from a re-analysis of the deposited data

How the results depend on the processing

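Of 41 pathway genes called as deposited, members included, 22 kept the call after the shift that made library medians equal and 19 were not called, while 7 were called only after it. Of the 7 members tested, 2 were called higher and 2 lower as deposited, against 0 and 4 after the shift, after quantile normalization and after rescaling without the 10 most abundant genes. Of the other pathway genes, 27 were called higher as deposited, against 10, 10 and 11 under these settings, and 10 lower, against 16 with quantile normalization and 6 with a minimum of 5 FPKM. With no minimum FPKM 1 member was called lower. With 1 library left out, members called lower numbered 1 to 2, members called higher 2 to 3, other pathway genes called higher 18 to 25 and called lower 6 to 11.

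With the shift 17 of the 63 pathway genes tested changed sign, 13 of them not called as deposited, and none was called after it. The genes named in the report that changed sign without a call as deposited were, under the shift, quantile normalization and rescaling in turn, Cdon (-0.19, -0.21 and -0.17), Iqce (-0.12, -0.13 and -0.11), Kif3a (-0.13, -0.12 and -0.13), Inpp5e (-0.12, -0.12 and -0.12) and Foxc2 (-0.15, -0.19 and -0.12), and, under the shift and quantile normalization, Gli2 (-0.0084 and -0.052). Evc2, called higher as deposited, was at -0.017, -0.013 and -0.019 under the 3 scaling settings in the same order and was not called. Leaving out 1 library turned Gas1 (0.014, without DMSO replicate 2), Cdon (-0.0076 to 0.098, lowest without GA replicate 2), Gpc6 (-0.082 to 0.052, highest without GA replicate 1) and Foxc2 (-0.061 to 0.23, lowest without DMSO replicate 1). The shift by construction moves all log values of a library by the same amount. Quantile normalization and rescaling move the log2 fold changes of different genes by unequal amounts. For single libraries the cause was not tested.

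The replicate numbers shared by the groups were not shown to pair samples (correlation of same-numbered deviations -0.025), and with the replicate number as a block the calls were 2 members higher and 2 lower, and 27 and 10 of the other pathway genes. Counting limits Gli1, Hhip and the ligand genes.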
